A study of Mus musculus with 32 samples.

Results

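The unfolded protein response and the integrated stress response were followed through 38 genes in the spinal cord of SOD1-G93A mice, a model of amyotrophic lateral sclerosis. The genes were taken by name from a list that holds the sensors of both responses, the transcription factors they switch on, and known targets of these factors. All 38 were found among the 42524 genes of the count table, and all 38 had enough counts to be tested at both times. They fell into 6 roles: 8 stress sensors and transcription factors, 5 feedback and effector genes of the integrated stress response, 6 amino acid and 1-carbon enzymes, 11 chaperones and cofactors of the endoplasmic reticulum (ER), 3 protein disulfide isomerases, and 5 genes of ER-associated degradation.

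RNA was sequenced from the spinal cord of 32 mice, 4 in each of 8 groups. The groups combine genotype (WT, C57BL/6J littermates, or G93A, which carry the B6-Tg(SOD1-G93A)1Gur human transgene on the same background), treatment (untreated, or the nitrone OKN-007) and time (labelled 90 and 155 days; the study's text places the earlier mice a few days later). The dose given to the sequenced mice and the sex of each mouse are not in the labels, and the human transgene itself was not analysed here. Library totals ran from 19701722 to 30138257 counts (median 26658755), so that 3 counts corresponded to at most 0.152 CPM (counts scaled to library size with edgeR's TMM factors). This limit covers counting error only.

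When unfolded proteins gather in the ER, the membrane sensors PERK (encoded by Eif2ak3), IRE1 (Ern1) and ATF6 are activated. IRE1 splices the mRNA of Xbp1, and XBP1 together with cleaved ATF6 raises transcription of ER chaperones, disulfide isomerases and the genes that export misfolded proteins for degradation. PERK, like the other kinases of the integrated stress response, phosphorylates the translation factor eIF2alpha. Bulk translation then falls while ATF4 is translated, and ATF4 drives amino acid enzymes, the factors CHOP (Ddit3), ATF5 and NUPR1, and the feedback genes Trib3 and Ppp1r15a. Misfolded SOD1 and ER stress in motor neurons have long been studied in this mouse line. Splicing, phosphorylation and cleavage do not change a gene's count, so the counts report mRNA levels and not the activity of a sensor.

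The DNA elements bound by these factors were looked for in the 250 bases upstream of RefSeq transcription starts (GRCm38.p6), with 37 promoters matched to 35 members. Atf6, Hyou1 and Manf were not matched. The ER stress response element, ERSE, was searched as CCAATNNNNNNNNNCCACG on both strands and was present in the promoters of 9 members (Calr, Canx, Creld2, Derl3, Dnajc3, Hsp90b1, Hspa5, Pdia6 and Syvn1), against 0.113% of all 32851 promoters in the table. A second form, ERSE-II (ATTGGNCCACG), was present in Herpud1 alone among the members and in 0.0304% of all promoters. The ATF4-binding CARE element, searched as TGATGNAA, was present in 4 members (Asns, Chac1, Herpud1 and Nupr1) and in 3.45% of all promoters. The short XBP1 element TGACGTGG, whose last 5 letters are the reverse complement of the CCACG that ends both ERSE forms, was in 0 member promoters and in 0.563% of all promoters.

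Below are ERSE sites of 4 members called in untreated mice at 155 days (Calr, Creld2, Dnajc3, Pdia6) and of Hspa5 and Canx, which were not, then the CARE sites of Nupr1, Chac1, Asns and Herpud1. Hsp90b1, Syvn1 and Derl3 also hold an ERSE, were not called and are not shown. Of the 9 ERSE members 4 were thus called in untreated mice, beside 39.5% of all genes tested. The sites below are shown to set the same letters beside different outcomes. Each is written 5′ to 3′ in the direction of the element, with its fixed letters in capitals and the neighbouring bases in lower case.
Calr: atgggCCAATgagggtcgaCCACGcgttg
Creld2: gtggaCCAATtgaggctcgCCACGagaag
Dnajc3: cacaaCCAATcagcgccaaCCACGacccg
Pdia6: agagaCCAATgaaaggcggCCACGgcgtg
Hspa5: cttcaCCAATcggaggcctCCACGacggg
Canx: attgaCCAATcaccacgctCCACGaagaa
Nupr1: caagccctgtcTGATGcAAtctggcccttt
Chac1: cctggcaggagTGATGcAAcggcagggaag
Asns: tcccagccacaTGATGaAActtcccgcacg
Herpud1: ggggtgcgggcTGATGcAAcccgccgtggt

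The capitals and the letters between them span chr8:84847075-84847093 for Calr (minus-strand gene), chr15:88819520-88819538 for Creld2 (plus), chr14:118937827-118937845 for Dnajc3 (plus), chr12:17266491-17266509 for Pdia6 (plus), chr2:34772025-34772043 for Hspa5 (plus) and chr11:50325800-50325818 for Canx (minus). The CARE letters span chr7:126625573-126625580 for Nupr1 (minus), chr2:119351049-119351056 for Chac1 (plus), chr6:7693225-7693232 for Asns (minus) and chr8:94386317-94386324 for Herpud1 (plus). The sites of Hspa5, Nupr1 and Asns lie upstream of the RefSeq start but inside an exon of the same gene in GENCODE M21. A match is a run of letters and was not shown to be bound.

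In untreated WT mice at 155 days the levels of the members, per kilobase of exon, spanned a 778-fold range. The abundant ER chaperones came first. Calreticulin (Calr) was at 221 ± 28.6 CPM per kb (SD, n = 4) and GRP94 (Hsp90b1) at 199 ± 22.9, which did not differ beyond their spread, followed by calnexin (Canx) at 126 ± 9.0 and BiP (Hspa5) at 116 ± 19.8, which did not differ either. The disulfide isomerase Pdia3 followed at 88.2 ± 5.67 CPM per kb and Atf4, the first transcription factor in the order, at 54.0 ± 3.54 CPM per kb. At the low end stood Ern1 with 1.52 ± 0.161, Nupr1 with 0.913 ± 0.139, Derl3 with 0.312 ± 0.0863 and Trib3 with 0.284 ± 0.0888 CPM per kb, the last 2 within each other's spread. The 4 highest places were thus held by chaperones of the ER.

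**Figure D1:**
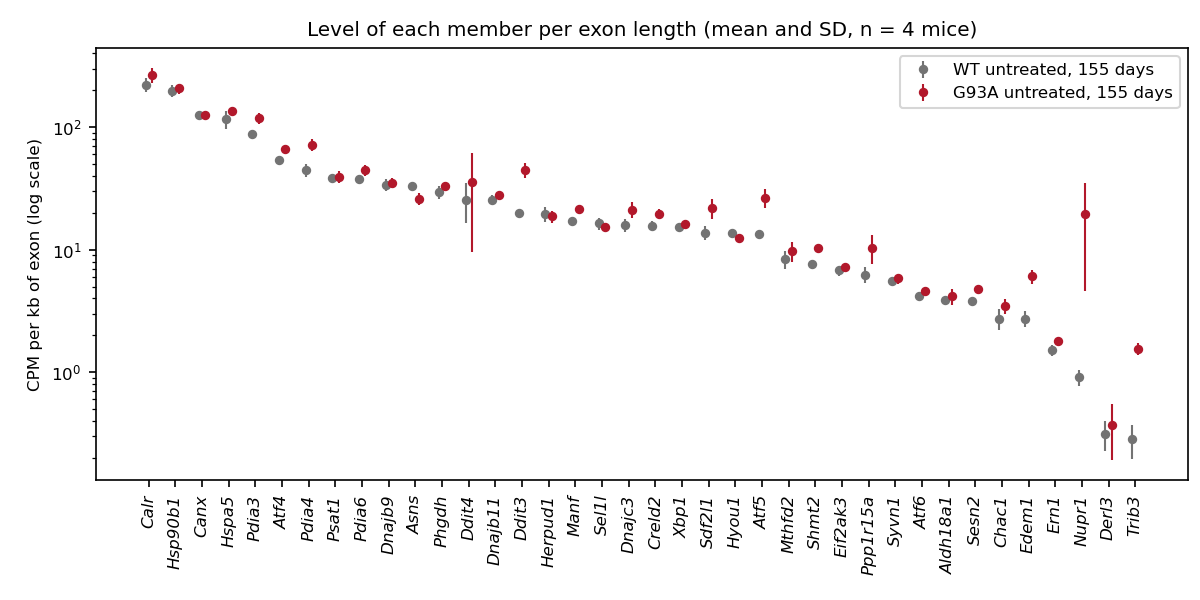
Level of each of the 38 members per kilobase of exon in untreated WT (grey) and untreated G93A (red) mice at 155 days, in order of the WT mean (log axis in CPM per kb; points are means and bars SD of 4 mice). Trib3 and Nupr1 lie near the low end in WT mice and stand apart in G93A mice, while Calr, Hsp90b1, Canx and Hspa5 form the upper end in both.

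At 155 days the called members of untreated G93A mice were found in all 6 roles. Of the 38 members, 19 were higher and 1 was lower than in untreated WT mice (adjusted p below 0.05, edgeR's quasi-likelihood test), so that 20 members were called. Over all 18675 genes tested, 39.5% were called, 21.3% higher and 18.2% lower. The median log2 fold change was 0.25 over the members and 0.00 over all genes. Called higher were 5 of 8 sensors and transcription factors, 4 of 5 feedback and effector genes, 5 of 11 chaperones and cofactors, all 3 disulfide isomerases, 1 of 5 degradation genes and 1 of 6 amino acid and 1-carbon enzymes. The single lower gene, Asns, was one of these enzymes. In 16 members every untreated G93A mouse lay above every untreated WT mouse and in 1 member every one lay below, 17 in all, against 17.4% of all genes above and 32.7% in either direction.

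RNA of cell type markers and of caudal Hox genes differed between the genotypes. All 8 microglial markers were higher in untreated G93A mice at 155 days (summed level 769 to 1390 against 176 to 217 CPM), as were all 7 astrocyte markers (13200 to 16700 against 4140 to 4600 CPM). All 7 neuronal markers were lower (1780 to 2620 against 3140 to 3680 CPM), and 7 of 8 motor neuron markers (157 to 183 against 271 to 327 CPM). Of the other lists, 1 of 7 oligodendrocyte, 0 of 5 endothelial, 1 of 3 tested Schwann cell and 2 of 4 fibroblast markers were higher, 1 of 2 tested B and plasma cell markers was lower, and 0 of 5 tested liver genes were called. In bulk RNA, fewer cells of a type and less RNA per cell cannot be told apart.

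The 6 caudal Hox genes, which mark the level along the cord, summed to 101, 104, 84.1 and 148 CPM in the untreated WT mice and to 4.73, 4.26, 78.2 and 82.2 CPM in the untreated G93A mice numbered 9 to 12. Thus 2 of the 4 G93A libraries held almost no caudal Hox RNA, and the groups did not overlap. With the caudal Hox level added to the fit, 15 members were called, all higher, and 5309 of 18675 genes. Without mice 9 and 10, an alternative chosen after these values were seen, 14 members were called (13 higher and 1 lower) and 5823 of 19520 genes. Liver genes summed to 190 CPM in G93A mouse 12 and to 133 CPM in the OKN-007-treated G93A mouse 15, against at most 19.6 CPM in the other mice of that time, and without both mice 20 members and 7348 of 18918 genes were called. The part of cell makeup in the members' changes was not tested.

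**Figure D2:**
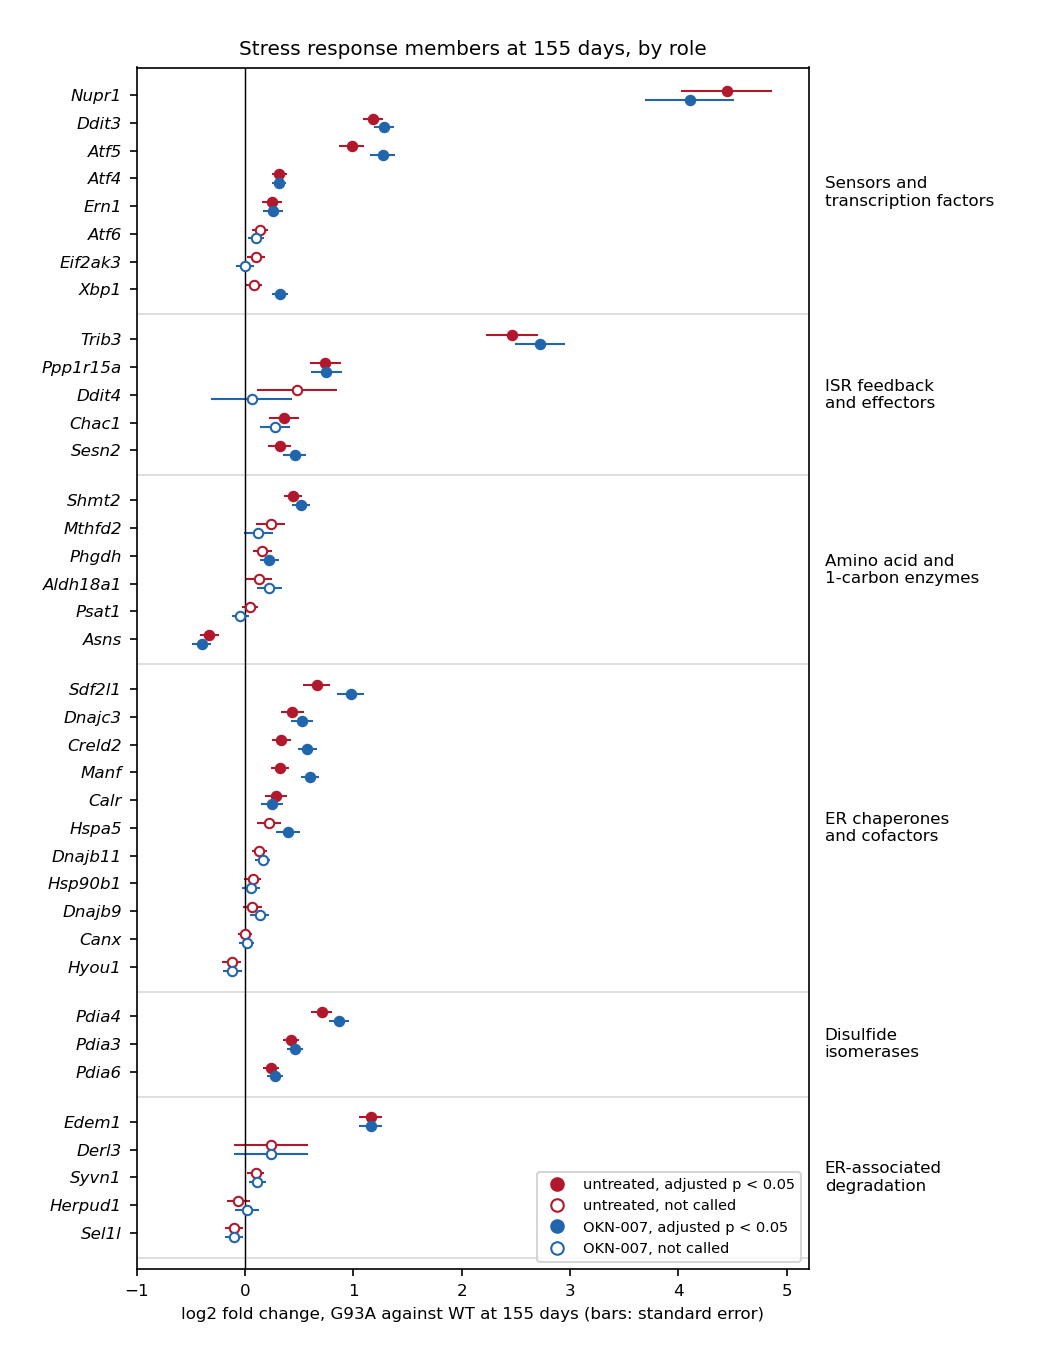
Log2 fold change of G93A against WT mice at 155 days for each of the 38 members, grouped by role, in untreated (red) and OKN-007-treated (blue) mice, with bars of 1 standard error and filled points at an adjusted p under 0.05. Nupr1 and Trib3 lie farthest to the right, the 3 disulfide isomerases are filled in both treatments, and Asns is the only filled point left of 0.

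Among the 3 membrane sensors, only Ern1 passed the test, by a small margin. Ern1 mRNA, which encodes the IRE1 kinase and endonuclease, was at 13.3, 10.5, 13.4 and 12.5 CPM in the untreated WT mice and at 16, 14.2, 14.5 and 14.1 CPM in the untreated G93A mice at 155 days. The groups did not overlap, with a log2 fold change of 0.25 (SE 0.09, adjusted p = 0.0387 by edgeR's quasi-likelihood test). This call was lost in 9 of 25 alternatives, among them the caudal Hox covariate (log2 fold change 0.18, adjusted p = 0.252), and without WT mouse 2 (0.20), G93A mouse 9 (0.22) or G93A mouse 11 (0.26). Eif2ak3, which encodes PERK, was at 46.1, 36.9, 40.8 and 39.6 CPM in WT and at 41.4, 45.2, 44.1 and 43.2 CPM in G93A mice. Its groups overlapped, and the log2 fold change of 0.10 (SE 0.08, adjusted p = 0.356) was not called. Atf6, the transcription factor precursor held in the ER membrane, was at 38.1, 37.8, 43.2 and 35.7 CPM in WT and at 43.3, 40.0, 42.5 and 43.2 CPM in G93A mice. This is a log2 fold change of 0.14 (SE 0.07, adjusted p = 0.139), again with overlapping groups.

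Xbp1, the target of IRE1 splicing, was at 49.5, 50.4, 48.9 and 50.5 CPM in untreated WT mice and at 55.6, 54.3, 50.3 and 49.3 CPM in untreated G93A mice at 155 days. The groups overlapped and the log2 fold change of 0.09 (SE 0.07, adjusted p = 0.37) was not called. In OKN-007-treated mice the WT values were 47.2, 45.1, 42.5 and 54.0 CPM and the G93A values 53.0, 60.6, 58.7 and 58.0 CPM. There Xbp1 was called higher, with a log2 fold change of 0.32 (SE 0.07, adjusted p = 0.00136), although 1 WT mouse lay within the G93A range. The genotype by treatment interaction of Xbp1 was 0.24 on the log2 scale (SE 0.10), with an unadjusted p of 0.0312 and an adjusted p of 1.0, so the difference between treatments did not pass.

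Atf4 rose modestly. It was at 118, 138, 125 and 129 CPM in untreated WT mice and at 157, 155, 172 and 145 CPM in untreated G93A mice at 155 days, without overlap. The log2 fold change was 0.32 (SE 0.07, adjusted p = 0.000978), and with OKN-007 it was also 0.32 (adjusted p = 0.000916). ATF4 is controlled mainly through translation of its mRNA, which these counts do not measure.

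Of the factors downstream of ATF4, Ddit3 and Atf5 were both called. Ddit3, which encodes CHOP, a factor linked to cell death under lasting ER stress, was at 33.7, 35.9, 32.4 and 34.2 CPM in untreated WT mice and at 68.1, 83.4, 87.8 and 67.2 CPM in untreated G93A mice. Every G93A mouse lay above every WT mouse, by 2.27-fold on average (log2 fold change 1.18, SE 0.09, adjusted p = 8.58e-09). Ddit3 had the smallest adjusted p of the 38 members in this comparison. Atf5, which encodes a related bZIP factor also controlled through translation, was at 24.4, 29.2, 26.1 and 27.7 CPM in WT and at 48.0, 63.0, 57.9 and 42.3 CPM in G93A mice. Its rise was 1.98-fold (log2 fold change 0.99, SE 0.12, adjusted p = 1.79e-06), again without overlap.

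Nupr1 encodes a small chromatin-associated stress protein and showed the largest change of the 38. It was at 2.42, 2.73, 2.06 and 1.97 CPM in untreated WT mice at 155 days. In the untreated G93A mice it reached 20.6, 46.0, 104 and 27.2 CPM, with no overlap with WT. The log2 fold change was 4.45 (SE 0.42, adjusted p = 1.17e-07), or 21.8-fold. Without G93A mouse 11, which had the highest value, the log2 fold change was 3.79 and the call remained. In OKN-007-treated G93A mice the values were 48.4, 41.0, 54.5 and 27.3 CPM against 2.91, 2.09, 2.84 and 2.4 CPM in treated WT mice, a log2 fold change of 4.10 (SE 0.41, adjusted p = 2.16e-07).

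Among the feedback and effector genes, the pseudokinase gene Trib3, which dampens ATF4 and CHOP activity, rose the most. It was at 0.447, 0.868, 0.611 and 0.492 CPM in untreated WT mice and at 3.24, 3.56, 3.57 and 2.81 CPM in untreated G93A mice. The log2 fold change was 2.47 (SE 0.24, adjusted p = 1.51e-07), and no G93A mouse came near the WT range. Ppp1r15a, which encodes the GADD34 subunit that directs a phosphatase to eIF2alpha, was at 16.9, 22.4, 16.9 and 17.4 CPM in WT and at 24.3, 32.5, 41.4 and 23.8 CPM in G93A mice. It was 1.67-fold higher (log2 fold change 0.74, SE 0.14, adjusted p = 0.000471), with the highest WT mouse just under the lowest G93A mouse.

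Sesn2, a stress-inducible inhibitor of mTORC1, was called with a log2 fold change of 0.32 (adjusted p = 0.0207), a call lost in 5 of 25 alternatives, among them the caudal Hox covariate (0.29, adjusted p = 0.113), and without WT mouse 1 (0.29) or G93A mouse 10 (0.29). Chac1, a glutathione-degrading enzyme, was called with 0.36 (adjusted p = 0.0448), but this call was lost in 18 of 25 alternatives. Among these was the caudal Hox covariate (0.38, adjusted p = 0.111 by edgeR's quasi-likelihood test). Ddit4, another mTORC1 inhibitor that also responds to glucocorticoids and hypoxia, varied widely within groups. It was at 36.3, 37.7, 37.1 and 68.9 CPM in WT and at 54.7, 21.7, 127 and 45.7 CPM in G93A mice, which was not called (log2 fold change 0.48, SE 0.37, adjusted p = 0.319). Without G93A mouse 11 its log2 fold change was -0.13, while it was called higher with the caudal Hox covariate (1.11, adjusted p = 0.0326) and without mice 9 and 10 (0.96, adjusted p = 0.0494).

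The biosynthetic enzymes that ATF4 is known to drive did not move together. Shmt2, the mitochondrial serine hydroxymethyltransferase, was at 20.9, 24.6, 23.8 and 25.7 CPM in untreated WT mice and at 30.7, 33.4, 34.5 and 29.2 CPM in untreated G93A mice at 155 days. It was called higher without overlap (log2 fold change 0.44, SE 0.08, adjusted p = 0.000267). Asns, the asparagine synthetase gene and a classic ATF4 target with the CARE site shown above, went the other way. It was at 88.0, 99.5, 87.4 and 88.4 CPM in WT and at 77.2, 62.2, 67.5 and 79.2 CPM in G93A mice, with every G93A mouse below every WT mouse (log2 fold change -0.33, SE 0.09, adjusted p = 0.00522). The direction of Asns was the same with OKN-007 (log2 fold change -0.40, adjusted p = 0.00107). With the caudal Hox covariate its log2 fold change was -0.25 and it was no longer called (adjusted p = 0.0921).

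The serine synthesis genes Psat1 (log2 fold change 0.05) and Phgdh (0.16), the folate enzyme gene Mthfd2 (0.24) and the proline synthesis gene Aldh18a1 (0.13) were not called in untreated mice. Phgdh was called without WT mouse 2 (0.25, adjusted p = 0.0247) and Mthfd2 without WT mouse 4 (0.38, adjusted p = 0.0299). Phgdh, which in the nervous system is made mainly by astrocytes and radial glia, was called in OKN-007-treated mice with a log2 fold change of 0.22 (adjusted p = 0.0465). As a mean over the 6 enzymes, log2 CPM was 5.575 ± 0.081 in untreated WT and 5.672 ± 0.067 in untreated G93A mice (SD, n = 4), with overlapping groups.

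Of the 11 ER chaperones and cofactors, 5 were called higher and 6 were not called in untreated mice. Hspa5, which encodes BiP, the chaperone that holds the sensors inactive, was at 580, 386, 471 and 533 CPM in untreated WT mice and at 544, 634, 552 and 553 CPM in untreated G93A mice at 155 days. The groups overlapped through 1 high WT mouse, and the log2 fold change of 0.23 (SE 0.11, adjusted p = 0.114) was not called. Without that mouse, WT mouse 1, it was called at 0.32 (adjusted p = 0.0335). With OKN-007, Hspa5 was at 529, 457, 495 and 538 CPM in WT and at 553, 739, 700 and 602 CPM in G93A mice, without overlap and called at a log2 fold change of 0.40 (SE 0.11, adjusted p = 0.00706). The interaction for Hspa5 was 0.17 (SE 0.16, adjusted p = 1.0). Hsp90b1 (log2 fold change 0.07), Canx (0.00), Hyou1 (-0.12), Dnajb9 (0.07) and Dnajb11 (0.13) were not called in untreated mice, whereas the lectin chaperone Calr was (0.29, adjusted p = 0.026). The Calr call was lost in 6 of 25 alternatives. Among them were the caudal Hox covariate (0.22, adjusted p = 0.194 by edgeR's quasi-likelihood test) and the fit without G93A mice 9 and 10 (0.18, adjusted p = 0.228). It was also lost without WT mouse 2 (0.23), WT mouse 3 (0.26) or G93A mouse 10 (0.20).

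Sdf2l1, Dnajc3, Creld2 and Manf were the other chaperones and cofactors called. Sdf2l1, a small ER protein that works with BiP and DNAJ cofactors, was at 16.9, 13.6, 13.6 and 17.2 CPM in untreated WT mice and at 23.9, 30.4, 21 and 21 CPM in untreated G93A mice, without overlap (log2 fold change 0.66, SE 0.12, adjusted p = 0.000352). Dnajc3, which encodes p58IPK, a BiP co-chaperone and PERK inhibitor, was at 91.0, 68.4, 85.5 and 80.0 CPM in WT and at 97.6, 106, 132 and 101 CPM in G93A mice. The groups did not overlap and the log2 fold change was 0.44 (SE 0.10, adjusted p = 0.00209).

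Creld2, a secreted ER stress protein, was at 21.4, 20.6, 19.6 and 24.4 CPM in untreated WT mice and at 28.4, 27.9, 23.7 and 27.5 CPM in untreated G93A mice. Only 1 G93A mouse fell inside the WT range (log2 fold change 0.34, SE 0.09, adjusted p = 0.00579). Manf, a neurotrophic factor retained in the ER until stress, was at 64.9, 58.4, 57.8 and 62.0 CPM in WT and at 76.4, 81.0, 75.7 and 67.7 CPM in G93A mice, without overlap (log2 fold change 0.32, SE 0.08, adjusted p = 0.00507). Without mice 9 and 10 neither gene was called, with log2 fold changes of 0.27 for Creld2 (adjusted p = 0.0861) and 0.26 for Manf (adjusted p = 0.0788).

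All 3 disulfide isomerases, which form and rearrange disulfide bonds in the ER, were higher in untreated G93A mice at 155 days. Pdia4 was at 121, 91.8, 103 and 109 CPM in WT and at 162, 198, 173 and 156 CPM in G93A mice, a 1.63-fold rise without overlap (log2 fold change 0.71, SE 0.09, adjusted p = 8.18e-06). Pdia3, the isomerase that partners calnexin and calreticulin and also serves MHC class I loading, was at 298, 255, 273 and 283 CPM in WT and at 346, 416, 375 and 338 CPM in G93A mice (log2 fold change 0.43, SE 0.07, adjusted p = 0.000153). Pdia6, which dampens PERK and IRE1 signalling, was called at 0.24 (adjusted p = 0.0146), and this call was lost with the caudal Hox covariate (0.19, adjusted p = 0.13) and without G93A mouse 10 (0.17, adjusted p = 0.0545).

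Edem1 was the 1 called gene of the 5 members of ER-associated degradation. It encodes a lectin that draws misfolded glycoproteins out of the folding cycle, and it was at 20.4, 14.2, 17.6 and 18.2 CPM in untreated WT mice and at 36.9, 42.8, 43.9 and 32.8 CPM in untreated G93A mice at 155 days. It was 2.24-fold higher without overlap (log2 fold change 1.16, SE 0.11, adjusted p = 6.38e-08). The ubiquitin ligase Syvn1 (log2 fold change 0.10), its partner Sel1l (-0.10), the stress-induced membrane protein Herpud1 (-0.06) and the channel component Derl3 (0.24) were not called. Derl3 was at most 1.24 CPM in the mice of that time.

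**Figure D3:**
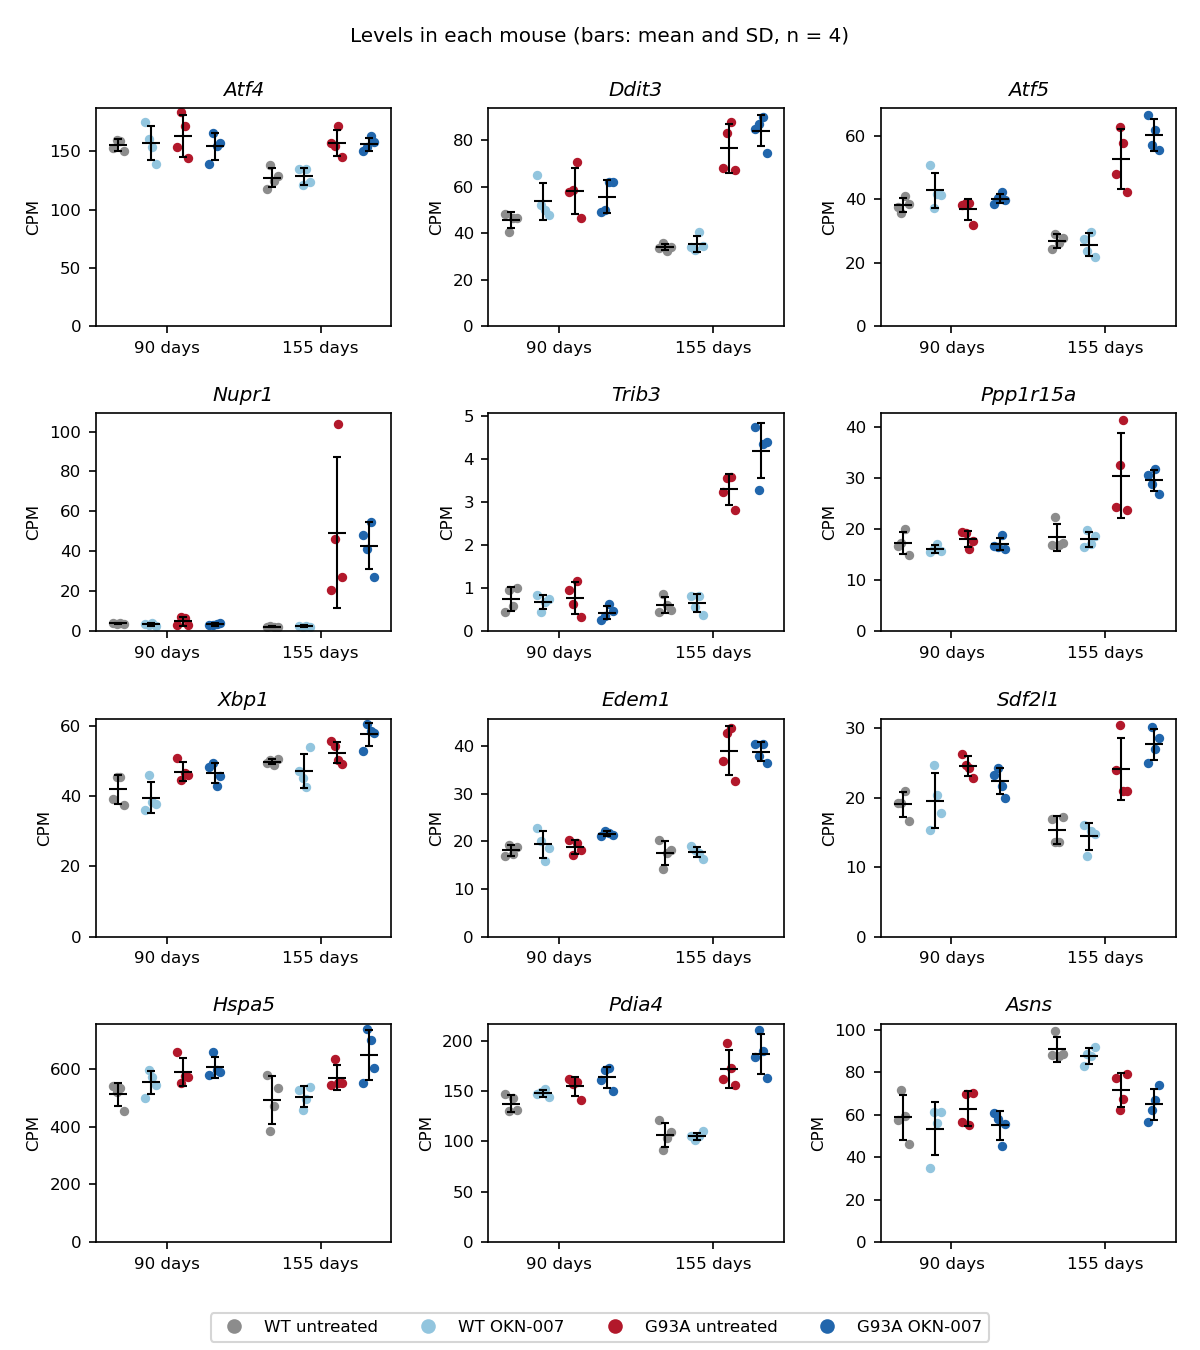
Levels of 12 members in each of the 32 mice (CPM, linear axes from 0; points are mice, bars mean and SD of 4), by group and time. Ddit3, Atf5, Nupr1, Trib3, Edem1 and Pdia4 of G93A mice lie above all WT mice at 155 days but not at 90 days, Hspa5 and Xbp1 overlap more, and Asns lies below WT at 155 days.

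The mice of a group did not rank alike across roles. In untreated G93A mice at 155 days, mouse 11 held the highest value of 4 of 5 feedback and effector genes and 4 of 6 enzymes, but the lowest value of 6 of 11 chaperones. Mouse 10 held the highest value of 6 of 11 chaperones and of all 3 disulfide isomerases. In the untreated WT mice, mouse 1 was highest for 8 of 11 chaperones and all 3 isomerases, while mouse 2 was lowest for 7 of 11 chaperones and all 3 isomerases and highest for 4 of 5 feedback and effector genes. These mice were singled out after their values were seen. Mouse 10 was also 1 of the 2 libraries low in caudal Hox RNA and mouse 11 was not, and the part of the sampled cord level in this ordering was not tested.

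As a mean over all 38 members, log2 CPM at 155 days was 5.43 ± 0.04 in untreated WT and 5.86 ± 0.09 in untreated G93A mice (SD, n = 4), a difference of 0.43 with no overlap. By role, the difference was 0.88 for sensors and transcription factors, 0.79 for feedback and effector genes, 0.44 for disulfide isomerases, 0.24 for degradation genes, 0.21 for chaperones and 0.10 for enzymes. The groups overlapped for the enzymes and the degradation genes and not for the other roles. The mean of the sensors and transcription factors rests largely on Nupr1, Ddit3 and Atf5, that of the feedback and effector genes on Trib3, and that of the degradation genes on Edem1. These 5 genes also carry a large part of the difference of the mean over all 38 members. The median log2 fold change in untreated mice was 0.248 over all members, 0.484 for feedback and effector genes, 0.226 for chaperones and 0.098 for degradation genes.

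**Figure D4:**
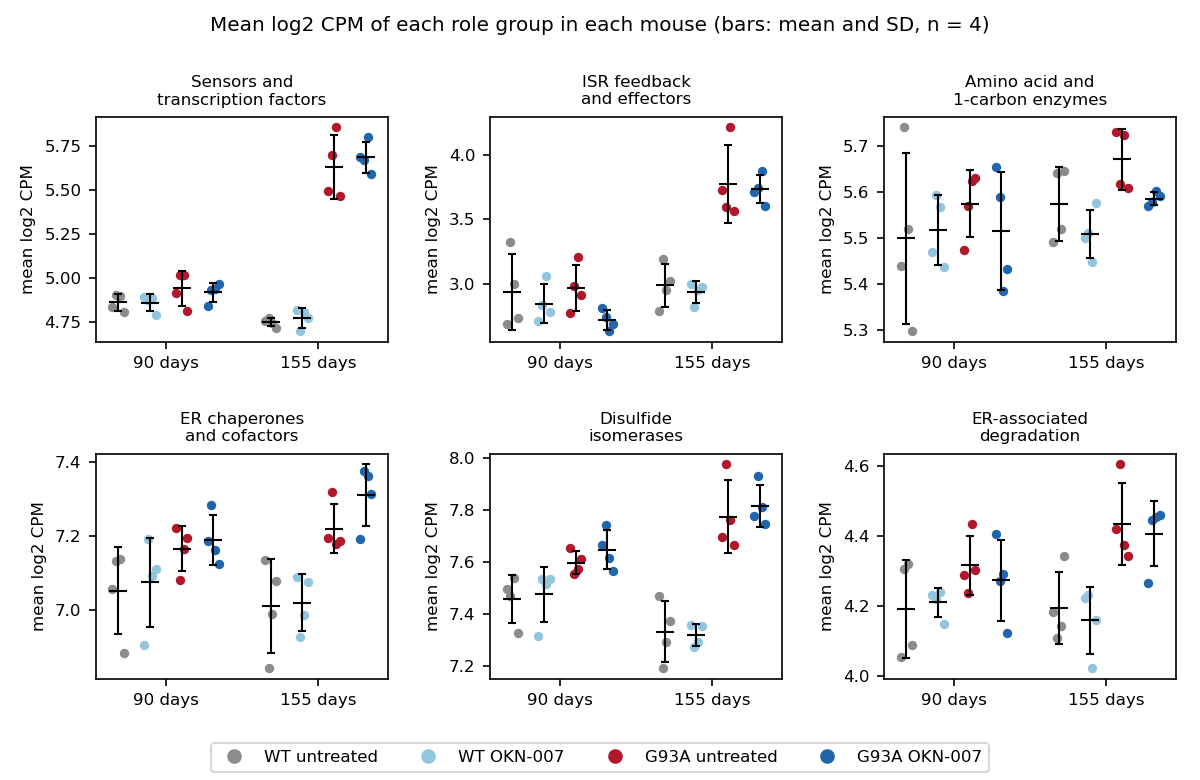
Mean log2 CPM over the members of each of the 6 roles in every mouse (points; bars are mean and SD of 4 mice), by group and time; the axes do not start at 0. At 155 days the G93A mice of both treatments lie above the WT mice for sensors and transcription factors, feedback and effector genes, chaperones and disulfide isomerases, and the enzymes overlap.

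A wider list of 106 other genes of these pathways was described by its counts. In untreated mice at 155 days, 51 of 106 were higher and 8 were lower, beside 21.3% and 18.2% of all genes tested, with a median log2 fold change of 0.165 beside 0.00 over all genes. The same shares of all genes stand beside the counts by group that follow. Of 9 genes of ER stress cell death and its inhibitors, 8 were higher. In ER folding, translocation and export 13 of 28 were higher and 0 lower, among other transcription factors and their proteases 6 of 12 higher and 0 lower, and among other degradation genes 8 of 20 higher and 4 lower. Among ATF4-linked enzymes, transporters and tRNA synthetases 13 of 27 were higher and 3 lower, and among kinases, phosphatases and subunits around eIF2, 3 of 10 were higher and 1 lower.

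The 4 largest rises of the wider list, which was made up of genes of these pathways, were of Atf3, Fgf21, Casp12 and Slc1a5. The stress transcription factor gene Atf3 went from 1.49 ± 0.32 to 31.0 ± 7.12 CPM (SD, n = 4; log2 fold change 4.38, adjusted p = 2.77e-09), the hormone gene Fgf21 from 0.0739 ± 0.0812 to 0.751 ± 0.174 CPM (log2 fold change 3.26, adjusted p = 0.000158, with between 0 and 5 counts in the WT mice), and the ER-associated caspase gene Casp12 from 2.46 ± 0.426 to 18.2 ± 3.72 CPM (log2 fold change 2.89, adjusted p = 1.30e-10). The glutamine transporter gene Slc1a5 went from 1.33 ± 0.377 to 6.68 ± 6.69 CPM (log2 fold change 2.33, adjusted p = 0.000631), a mean that 1 mouse at 16.6 CPM dominates. The 4 largest falls were small: the ubiquitin-conjugating enzyme gene Ube2j1 (log2 fold change -0.42), the glycine transporter gene Slc6a9 (-0.39), the glycyl-tRNA synthetase gene Gars (-0.35) and the ubiquitin ligase gene March6 (-0.30). Slc6a9 and Gars stood in the same group of ATF4-linked genes as Fgf21 and Slc1a5, so that group held both rises and falls. Slc6a9 is also a gene of glia and spinal neurons, and Casp12 and Atf3 are also expressed by microglia and injured neurons.

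In OKN-007-treated mice at 155 days the genotypes were compared in the same way. Here 22 members were called, 21 higher and 1 lower, beside 41.5% of all genes (23.3% higher and 18.2% lower). The caudal Hox genes summed to 126 to 166 CPM in the treated WT and 22.6 to 67.8 CPM in the treated G93A mice, the microglial markers to 162 to 183 and 951 to 1220 CPM, the astrocyte markers to 4040 to 4310 and 14000 to 16600 CPM, and the neuronal markers to 3190 to 3430 and 1570 to 2300 CPM. With the caudal Hox level in the fit, 19 members (18 higher and 1 lower) and 6046 of 18675 genes were called, and the part of cell makeup was not tested. Of the 20 members called in untreated mice 19 (95%) were also called in treated mice, which are 86.4% of the 22. The same overlap was not counted over all genes, so it cannot be read as particular to the members. Chac1 was called in untreated mice alone, and Xbp1, Hspa5 and Phgdh in treated mice alone, and none of these 4 had a called interaction. The treated G93A mice rose over treated WT mice by log2 fold changes of 1.29 for Ddit3, 1.27 for Atf5, 2.72 for Trib3, 1.16 for Edem1, 0.87 for Pdia4 and 0.98 for Sdf2l1. With both treatments averaged, 24 members were called, 23 higher and 1 lower, beside 54.7% of all genes (28.8% higher and 25.8% lower), and Dnajb11 joined at a log2 fold change of 0.15 (adjusted p = 0.0151).

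No change of a member with OKN-007 was detected at 155 days. Between treated and untreated G93A mice, 0 of 38 members and 0.0% of all genes were called by edgeR's quasi-likelihood test, with 2 members and 755 genes at an unadjusted p under 0.05 and 0 members and 0 genes called by DESeq2. The 2 members were Creld2 and Manf, both higher with treatment. Creld2 was at 29.4, 31.4, 34.6 and 31.1 CPM in treated against 28.4, 27.9, 23.7 and 27.5 CPM in untreated G93A mice, without overlap (log2 fold change 0.25, SE 0.09, unadjusted p = 0.0125, adjusted p = 1.0). Manf was at 75.2, 93.8, 88.7 and 80.8 CPM in treated against 76.4, 81.0, 75.7 and 67.7 CPM in untreated G93A mice, with overlap (log2 fold change 0.18, SE 0.08, unadjusted p = 0.0451, adjusted p = 1.0).

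Over the 38 members the effect of OKN-007 in G93A mice at 155 days ranged from -0.48 (Ddit4, SE 0.37) to 0.36 (Trib3, SE 0.20) on the log2 scale, with a median of 0.01 beside -0.01 over all genes. Of the 38 members 21 had a positive value, and the share over all genes was not counted. They were 10 of 11 chaperones (median 0.08), 3 of 3 disulfide isomerases and 5 of 8 sensors and transcription factors. The rest were 1 of 5 feedback and effector genes, 1 of 6 enzymes and 1 of 5 degradation genes. Members measured in the same mice are not independent of each other. For Ddit3 the effect was 0.15 (SE 0.09), for Atf4 0.00 (SE 0.07) and for Hspa5 0.19 (SE 0.11), each with an adjusted p of 1.0. In WT mice 0 members and 0.0% of genes were called, with 0 members and 549 genes at an unadjusted p under 0.05, and 0 members and 3 genes by DESeq2. The genotype by treatment interaction also gave 0 members and 0.0% of genes, with 2 members (Xbp1, and Manf with a log2 interaction of 0.28, SE 0.12) and 437 genes at an unadjusted p under 0.05, and 0 members and 3 genes by DESeq2. The mean log2 CPM over the 6 enzymes was lower in every treated G93A mouse (5.57 to 5.602) than in every untreated one (5.609 to 5.732), a narrow gap that was not tested.

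At the earlier time no member was called. With no treatment, the genotypes at 90 days gave 0 members and 0.0% of the 18899 genes tested by edgeR's quasi-likelihood test (1126 genes at an unadjusted p under 0.05), and DESeq2 called 0 members and 15 genes. At an unadjusted p under 0.05 stood 6 members (Ddit3, Hspa5, Sdf2l1, Manf, Pdia4 and Pdia6), all with positive values, beside 3.17% of all genes higher at that limit. In OKN-007-treated mice 0 members and 0.0% of genes were called, with 4 members (Xbp1, Dnajc3, Pdia4 and Pdia6) and 747 genes at an unadjusted p under 0.05, and 0 members and 1 gene by DESeq2. With both treatments averaged 5 genes (0.0265%) and 0 members were called, while 8 members (Xbp1, Ddit3, Hspa5, Dnajc3, Sdf2l1, Manf, Pdia4 and Pdia6) had positive values at an unadjusted p under 0.05, beside 3.74% of all genes, and DESeq2 called 0 members and 58 genes. Of these 8, 6 are chaperones, cofactors or isomerases, roles that hold 11 and 3 of the 38 members. Nupr1, Trib3, Atf5 and Edem1 are not among the 8. None of the 8 was called, and an order of the roles in time was not tested. The caudal Hox genes summed to 7.58 and 5.95 CPM in the treated G93A mice 13 and 14 of that time and to between 19 and 92.7 CPM in the other mice. Schwann cell markers summed to 1120 CPM in untreated WT mouse 3 and to 210 CPM in untreated G93A mouse 10, against at most 2.62 CPM in the others. Fibroblast markers summed to 109 and 66.0 CPM in these mice, against at most 52.5 CPM in the others. The part of these differences in the member values at 90 days was not tested.

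Manf at 90 days was at 65.5, 66.4, 70.7 and 56.4 CPM in untreated WT mice and at 79.7, 84.3, 81.0 and 73.5 CPM in untreated G93A mice, without overlap (log2 fold change 0.30, SE 0.08, unadjusted p = 0.00222, adjusted p = 0.794). For Sdf2l1 the WT values were 19.2, 19.2, 21 and 16.6 CPM and the G93A values 26.2, 24.7, 24.3 and 22.8 CPM, also without overlap (log2 fold change 0.37, SE 0.11, unadjusted p = 0.00486, adjusted p = 0.794). Hspa5 was at 542, 519, 534 and 455 CPM in WT and at 660, 550, 577 and 573 CPM in G93A mice, likewise apart (log2 fold change 0.20, SE 0.08, unadjusted p = 0.0169, adjusted p = 0.822). These 3 come from the members with an unadjusted p under 0.05 in the same untreated mice, so their lack of overlap adds no separate support. The share of all genes without overlap was not counted at 90 days. In OKN-007-treated mice at 90 days the genotypes overlapped for all 3, for example for Manf with 58.5, 78.0, 67.8 and 66.6 CPM in WT and 77.2, 80.8, 70.8 and 74.1 CPM in G93A mice.

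Nupr1 at 90 days was at 4.23, 3.92, 3.98 and 3.84 CPM in untreated WT mice and at 3.23, 7.02, 6.66 and 3.03 CPM in untreated G93A mice, where 2 G93A mice lay above and 2 below all WT mice (log2 fold change 0.31, SE 0.24, adjusted p = 0.895). Trib3 was at 0.442, 0.963, 0.595 and 0.999 CPM in WT and at 0.961, 0.625, 1.16 and 0.344 CPM in G93A mice, with overlap (log2 fold change 0.04, adjusted p = 0.913). Unlike Nupr1 and Trib3, Ddit3 was among the members at an unadjusted p under 0.05, as were Manf, Sdf2l1 and Hspa5. Ddit3 was at 48.3, 40.5, 46.8 and 46.6 CPM in WT and at 57.6, 58.7, 70.7 and 46.4 CPM in G93A mice, with 1 G93A mouse inside the WT range (log2 fold change 0.36, SE 0.13, unadjusted p = 0.0122, adjusted p = 0.822).

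As a mean over the 3 disulfide isomerases, log2 CPM at 90 days was 7.456 ± 0.092 in untreated WT and 7.596 ± 0.043 in untreated G93A mice, and 7.474 ± 0.106 and 7.646 ± 0.076 in treated mice (SD, n = 4). It was the only role in which all G93A mice lay above all WT mice in both treatments at that time. The gaps were narrow, from 7.537 (highest WT) to 7.554 (lowest G93A) in untreated and from 7.533 to 7.564 in treated mice. The role was singled out by these values, and its difference was not tested. OKN-007 at 90 days gave 0 called members and 0.0% of genes in G93A mice (1 member, Edem1, and 1050 genes at an unadjusted p under 0.05), in WT mice (0 members and 769 genes at that limit) and for the interaction (0 members and 531 genes at that limit). DESeq2 called 0 genes in all 3.

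Whether the genotype difference grew between the times was tested directly over all 32 mice. In untreated mice 10 members had a larger difference at 155 than at 90 days and 0 a smaller one, 10 called in all, beside 21.2% of the 19829 genes tested (12.9% higher and 8.34% lower). The largest growth was of Nupr1 (4.13 on the log2 scale, adjusted p = 3.20e-07), Trib3 (2.41, adjusted p = 0.000134), Edem1 (1.09, adjusted p = 1.02e-06), Atf5 (1.02, adjusted p = 8.33e-06) and Ddit3 (0.81, adjusted p = 0.000369). Ppp1r15a, Pdia4, Ern1, Shmt2 and Pdia3 followed with 0.66, 0.52, 0.39, 0.36 and 0.35. None of the 11 chaperones was among them, and the growth of Hspa5 was 0.01 (SE 0.14, adjusted p = 0.975) and that of Manf 0.01 (SE 0.12, adjusted p = 0.976).

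In OKN-007-treated mice 14 members had a called growth, all higher, beside 23.0% of all genes (13% higher and 9.97% lower). They comprised all of the 10 above except Ern1, together with Atf4, Dnajc3, Sdf2l1, Creld2 and Manf. The growth was 0.75 for Sdf2l1, 0.44 for Creld2, 0.40 for Manf, 0.34 for Dnajc3 and 0.31 for Atf4. Whether the growth itself differed between treatments was not tested. The caudal Hox sums of WT and G93A mice were apart at 155 days in both treatments. At 90 days they overlapped (19 to 92.7 and 29.4 to 76.2 CPM untreated, 22.6 to 70.3 and 5.95 to 83.7 CPM treated). Over all alternatives, the caudal Hox covariate among them, 7 to 11 members had a called growth in untreated and 10 to 15 in treated mice. The part of the sampled cord level in the growth was not tested.

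**Figure D5:**
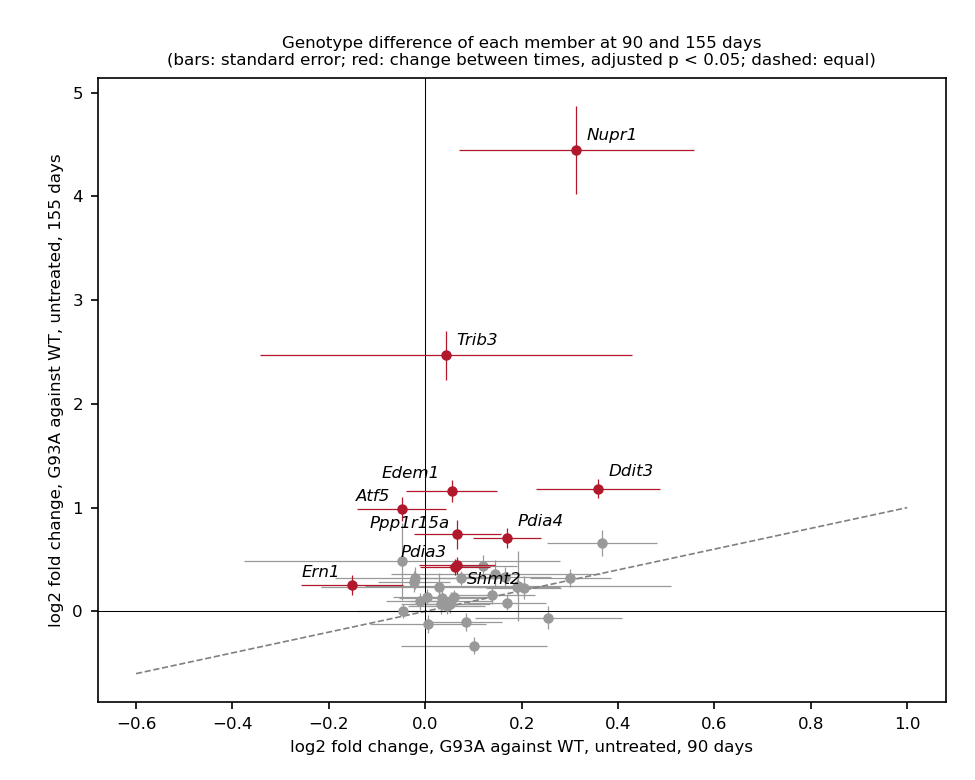
Log2 fold change of untreated G93A against untreated WT mice for each of the 38 members at 90 days (horizontal) and 155 days (vertical), with bars of 1 standard error and a dashed line of equal values; red points are the 10 members whose difference changed between times at an adjusted p under 0.05. Nupr1 (4.45) and Trib3 (2.47) stand highest at 155 days and lie at 0.31 and 0.04 at 90 days.

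WT levels also differed between the times. In untreated WT mice Ddit3 was at 45.5 ± 3.44 CPM at 90 days and 34.1 ± 1.42 at 155 days, Atf5 at 38.2 ± 2.3 and 26.9 ± 2.06, Pdia4 at 138 ± 8.53 and 106 ± 12.4, and Asns at 58.7 ± 10.5 and 90.8 ± 5.82 CPM (SD, n = 4). The untreated G93A mice at 155 days held 76.6 ± 10.5 CPM of Ddit3 and 71.5 ± 8.05 CPM of Asns. The oligodendrocyte markers of untreated WT mice summed to 32700 to 39500 CPM at 90 days and 21400 to 23400 CPM at 155 days, and the caudal Hox genes to 19 to 92.7 and 84.1 to 148 CPM. Age and the handling of each time's samples cannot be told apart, and levels were not tested between times within a genotype.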

How the data were processed

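RNA was extracted from a piece of spinal cord of each mouse and made into stranded mRNA libraries. The deposited table holds whole-number counts of reads per gene, not normalized, 1 column for each of the 32 mice. The authors' methods name Trimmomatic, STAR and HTSeq with GENCODE M10 (GRCm38), whereas the submitters' processing notes name FastQC, STAR, featureCounts and edgeR with GRCm39, mm39 and hg38, and 1306 identifiers lie above the highest of GENCODE M21, so the counter and build are uncertain. Gene names, positions and exon lengths were taken from GENCODE M21 (GRCm38), which named 41203 of 42524 genes (96.9%). No gene's counts summed to less than 2 over all mice.

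Each time was fitted with its 4 groups of 4 mice, and both times together for the change between them, with edgeR 4.0.16 in R 4.3.3 (filterByExpr, TMM factors, quasi-likelihood test, Benjamini-Hochberg adjustment over all genes tested, threshold 0.05). CPM used the TMM factors of all 32 mice, and mean log2 CPM a prior count of 2. Groups came from the labels. Mice are labelled as separate samples. No pair of libraries of the same group agreed within sampling noise, and pairs across groups were not compared in this way. Members given in every mouse were Atf4, Ddit3, Xbp1, Hspa5, Atf6, Ern1 and Eif2ak3, members called with a log2 fold change of at least 0.585 (at most 12), and those whose genotype difference changed with time. Asns and Ddit4 were added after their values were seen. Of the wider list, the 4 largest called changes in each direction were named. The members and lists were chosen with earlier results of these data known. Alternatives were RLE factors, no filter, at least 10 counts in every mouse, a caudal Hox covariate, all mice in one fit, the compared groups alone, a replicate block, DESeq2 1.42.0 and leaving out mice. The procedure was tested on simulated data. Promoter sequences came from RefSeq (GRCm38.p6).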

Additional observations from a re-analysis of the deposited data

Results flagged for a closer look

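Of 208 groups of 4 mice tested (Dixon's criterion, which chance meets in about 1 in 20, or 10.4 here), 9 held 1 mouse far from the others. Hspa5 was at 634 CPM in G93A untreated mouse 10 at 155 days, with the nearest mouse at 553, and the chaperone mean of that mouse was 7.317 log2 CPM against 7.195. Ppp1r15a was at 22.4 CPM in WT untreated mouse 2 at 155 days against 17.4, and the degradation mean was 4.267 in G93A OKN-007 mouse 13 at 155 days against 4.446. At 90 days Atf5 was at 31.9 CPM in G93A untreated mouse 12 against 38.2, and Creld2 at 33.7 CPM in G93A OKN-007 mouse 14 against 29.9. At that time the mean over all members was 5.621 in G93A untreated mouse 11 against 5.535, that of the sensors and transcription factors 4.786 in WT OKN-007 mouse 8 against 4.872, and that of the disulfide isomerases 7.316 in WT OKN-007 mouse 5 against 7.516.

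The genotype difference changed from 90 to 155 days for 10 members in untreated mice. On the log2 scale the change was 4.1317 for Nupr1, 2.414 for Trib3, 1.0916 for Edem1, 1.0226 for Atf5, 0.8117 for Ddit3, 0.6614 for Ppp1r15a, 0.5247 for Pdia4, 0.3918 for Ern1, 0.3634 for Shmt2 and 0.3519 for Pdia3. With OKN-007 it changed for 14 members, by 4.0191 for Nupr1, 3.3179 for Trib3, 1.3266 for Atf5, 1.1944 for Ddit3, 0.971 for Edem1, 0.7519 for Sdf2l1, 0.6807 for Pdia4, 0.6343 for Ppp1r15a, 0.5025 for Shmt2, 0.4397 for Creld2, 0.4036 for Manf, 0.3439 for Dnajc3, 0.3272 for Pdia3 and 0.3085 for Atf4.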

How the results depend on the processing

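Every count of members called stayed within 1.5 times its value, 14 to 20 for untreated mice at 155 days, 19 to 23 with OKN-007 and 19 to 25 for their mean, 7 to 11 and 10 to 15 for the change between times, and 0 throughout for OKN-007, the interaction and 90 days. Over 25 alternatives for each of 38 members (untreated, 155 days), 885 values kept direction and call, 45 lost the call, 5 gained it and 15 changed sign, all 15 in members not called. For Canx the log2 fold change was -0.0113 with RLE factors, -0.0035 with the caudal Hox covariate, -0.0112 with all 32 mice in one fit, -0.01 with DESeq2, -0.0088 without mice 9 and 10, -0.0151 without mice 12 and 15, and -0.0303 to 0.0395 on leaving out 1 mouse. For Herpud1 it was 0.1103 with the covariate and -0.1166 to 0.0479 on leaving out 1 mouse, for Derl3 -0.2283 without mice 9 and 10 and -0.1024 to 0.4617, for Ddit4 -0.1258 to 0.7809, and for Psat1 -0.0188 to 0.0999. The cause was not tested. The settings without 2 mice were chosen after seeing the data. Same-numbered mice of the 2 times deviated with correlations of -0.215 to 0.134, 2 of 16 over 0.1 and 3 of 16 best with their own number. The labels do not say that the number pairs mice, and whether same-numbered mice shared litters or handling was not tested. With a replicate block 9 members (untreated) and 14 (OKN-007) were called for the change between times. With 4 mice a group and 3 counts worth up to 0.152 CPM, small differences of Trib3 and Derl3 are the least certain.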
